A study of Homo sapiens with 4 samples.

Results

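The baseline transcriptome described here is that of MDA-MB-231 cells that had been kept for 24 h in DMSO, the solvent control. The line is an established one from a human breast cancer of the triple-negative class. It was read from 2 of the 4 libraries of the study, labelled DMSO 1 and DMSO 2, which were chosen by their treatment label alone. The other 2 libraries came from cells given RB-BC, which the study's title calls a ribociclib derivative, and they enter no value below. All cells were grown in DMEM with 10% fetal bovine serum and antibiotics. The sample labels name DMSO, whereas the design text speaks of cells without treatment. No source used here gives the amount of DMSO, and nothing says that the 2 libraries came from separate cultures.

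Triple-negative breast cancers are defined by the absence of the oestrogen and progesterone receptors and of HER2 amplification, so they lack the targets of endocrine and HER2-directed therapy. MDA-MB-231 is widely used as a model of the mesenchymal, claudin-low end of this class. Such cells have lost the E-cadherin junctions of breast epithelium and carry an intermediate filament network rich in vimentin. The line also carries activating mutations of the RAS pathway and lacks the INK4A locus that encodes the CDK inhibitor p16.

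The libraries held 34774542 counts in DMSO 1 and 37754168 counts in DMSO 2. Transcripts of the 13 protein genes of the mitochondrial genome made up 8.68% of DMSO 1 (8.67% to 8.69%, Wilson 95% limits). They made up 21.7% of DMSO 2 (21.68% to 21.71%). Levels were therefore expressed as CPM, a share scaled to 1000000, of the counts outside these genes, which numbered 31756592 and 29564379. A gene with no count could still hold up to 3 counts in a library, or 0.0945 CPM in DMSO 1 and 0.101 CPM in DMSO 2. Small counts were more often even than odd: 70.7% of the counts from 1 to 10 were even in either library, against 50.1% and 50.2% of those from 11 to 100. No source used here says whether both mates of a read pair were counted. If they were, a fragment can give 2 counts, and the intervals and the floor of 3 counts would be too narrow. All intervals below treat counts as independent reads and cover counting error only.

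Of 20250 genes outside the mitochondrial genome, 12236 (60.4%) reached 1 CPM in both libraries. A further 4752 (23.5%) had no count in either, and the remaining 3262 lay between these limits. Genes above a mean of 100 CPM numbered 2558, and 66 had a mean above 1000 CPM. The 20 genes with the most counts together held 7.12% of the non-mitochondrial counts in DMSO 1 and 7.17% in DMSO 2.

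Outside the mitochondrial genome, genes of translation, glycolysis, protein folding, iron storage and the cytoskeleton took the most reads. EEF1A1, the elongation factor that brings aminoacyl-tRNA to the ribosome, led with 9086 CPM in DMSO 1 and 6450 CPM in DMSO 2. The glycolytic enzyme gene GAPDH had 5739 and 6037 CPM. HMGA1, which encodes an architectural chromatin protein abundant in embryonic and tumour cells, followed with 4327 and 5341 CPM. By the mean of both libraries it stood at rank 3 outside the mitochondrial genome, although FTL (the ferritin light chain, 4383 and 4598 CPM) and ACTB (4368 and 3812 CPM) were above it in DMSO 1. VIM (vimentin) had 3916 and 4702 CPM. The rest of the first 20 included the cytoskeletal genes ACTB, PLEC, DYNC1H1, MSN, TUBB, MYH9 and ACTN4 and the chaperone genes HSPA8, HSP90AA1 and HSP90AB1. They also included 2 secreted proteins, the matricellular protein CCN1 (2497 and 3070 CPM) and the insulin-like growth factor binding protein IGFBP4 (1968 and 2771 CPM).

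CPM favours long transcripts, so levels of different genes were compared per kilobase of exon. On that scale FTL came first at a mean of 5115 CPM per kb, followed by HMGA1 at 2077 and GAPDH at 1975. TMSB10, a small protein that binds actin monomers, stood at rank 104 in CPM and at rank 4 per kb (1537 CPM per kb). Genes with a long total of exons went the other way, the cytoskeletal linker PLEC from rank 7 to rank 75 and the dynein motor DYNC1H1 from rank 10 to rank 384. That total merges all annotated exons of a gene and can exceed the length of any single transcript. The others of the first 8 per kb, namely EEF1A1, ACTB, CCN1 and IGFBP4, were also among the first 20 in CPM.

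**Figure D1:**
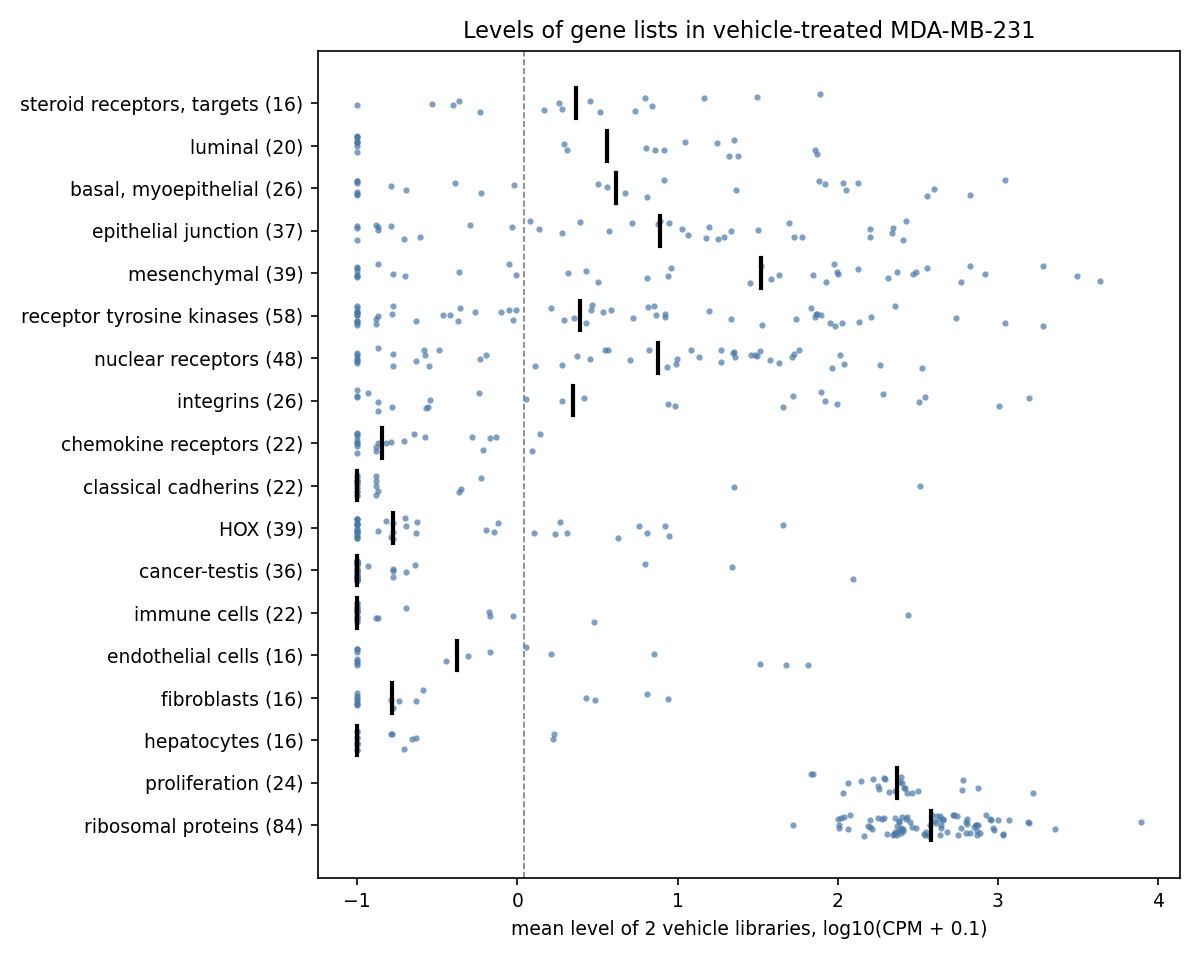
Level of each member of 18 gene lists as the mean of both vehicle libraries, on a log10 axis of CPM + 0.1, with the number of measured members in brackets; points at the far left had no count, black bars are list medians and the dashed line marks 1 CPM. Proliferation and ribosomal protein genes lie wholly to the right of the line, while the medians of cadherins, cancer-testis antigens, immune and hepatocyte markers lie at 0.

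The hormone receptor genes that define breast cancer subtypes were low, with ESR1 under 1 CPM and PGR above 1 CPM in both libraries. In RNA from whole cultures a low level in all cells cannot be told apart from a higher level in a few. ESR1, the oestrogen receptor alpha gene, had 23 counts in DMSO 1 and 7 in DMSO 2 (0.72 and 0.24 CPM). PGR, the progesterone receptor gene, had 1.61 and 1.96 CPM. TFF1, a secreted protein whose gene is a textbook oestrogen target, had no count in either library. Per kb, ESR1 stood at a mean of 0.035 CPM and PGR at 0.12 CPM. ESR2 (oestrogen receptor beta) differed between the libraries, at 1.57 and 3.89 CPM, and so did PRLR (prolactin receptor), at 1.61 and 11.97 CPM. Of the 16 steroid receptor and target genes listed, 11 reached 1 CPM in both libraries, a share of 68.8% that lies near the 60.4% of all genes.

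Among 48 nuclear receptors, which are ligand-gated or orphan transcription factors, 31 (64.6%) reached 1 CPM in both libraries and 6 (12.5%) had no count. Over all genes these shares were 60.4% and 23.5%. The orphan receptor gene NR2F2 (COUP-TFII) was the highest by CPM and per kb, with 317 and 356 CPM. NR3C1, which encodes the glucocorticoid receptor, had 121 and 98.0 CPM, and PPARG 53.8 and 50.1 CPM. The receptors without a count included RXRG, ESRRB, NR5A1 and NR0B1, which are best known from other tissues.

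In the ERBB family EGFR was far above the other members. EGFR, the receptor of epidermal growth factor, had 1025 and 1197 CPM, or a mean of 88.7 CPM per kb. ERBB2, which encodes HER2, had 84.8 and 72.7 CPM (7.63 CPM per kb), while ERBB3 had 6.46 and 3.82 CPM and ERBB4 0.47 and 0.41 CPM. HER2 transcript was thus present, at a level per kb well under that of EGFR. The EGFR ligand genes AREG (amphiregulin, 14.6 and 22.0 CPM) and EREG (epiregulin, 24.3 and 28.8 CPM) were transcribed too.

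AXL, the receptor of the vitamin K-dependent ligand GAS6, led all 58 receptor tyrosine kinases with 1811 and 2021 CPM (372 CPM per kb). EPHA2 had 535 and 565 CPM and MET, the hepatocyte growth factor receptor, 267 and 188 CPM. These 3 and EGFR stood highest per kb among the kinase receptors named here. Of the 58, 32 (55.2%) reached 1 CPM in both libraries, near the 60.4% of all genes. The 11 with no count (19.0%, against 23.5% of all genes) included RET, ROS1, NTRK2, NTRK3 and the blood and endothelial receptors FLT3, FLT1 and TEK.

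Receptors of other families split sharply. Of 39 genes for TGF-beta, BMP, gp130, interferon and TNF family receptors, 36 (92.3%) reached 1 CPM in both libraries, led by TGFBR2 (500 and 492 CPM), IL6ST, which encodes gp130 (326 and 230 CPM), and OSMR, the oncostatin M receptor (261 and 276 CPM). Of 22 chemokine receptors only CCR10 did so, at 1.35 and 1.22 CPM. CXCR4, a receptor often studied in metastasis of this line, had 1.35 and 0.91 CPM, and ACKR3, CXCR1 and CXCR2 had no count. Integrins, the receptors for matrix, were led by ITGA3 (1462 and 1663 CPM) and ITGB1 (1144 and 877 CPM), the chains of a laminin receptor. Of 26 integrin genes 14 (53.8%) reached 1 CPM in both libraries, near the 60.4% of all genes, and ITGA4, ITGA8 and ITGAD had no count.

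Some mesenchymal genes were highly expressed, beside some genes of epithelial junctions. VIM and MSN (moesin, which links actin to the membrane, 2729 and 3511 CPM) were among the first 20 genes. FN1 (fibronectin) had 699 and 953 CPM, CAV1 (caveolin 1) 678 and 651 CPM and CD44 (a hyaluronan receptor) 530 and 644 CPM. ZEB1, a repressor of E-cadherin, had 68.7 and 71.0 CPM, its relative ZEB2 27.3 and 29.4 CPM and SNAI2 22.6 and 53.7 CPM. SNAI1 was low, at 0.98 and 2.98 CPM, and TWIST1 and TWIST2 had no count. The median of the 39 mesenchymal genes was 33.1 CPM, against 7.92 CPM over all genes and 7.64 CPM over the 37 epithelial genes. The share at 1 CPM in both libraries differed little. It was 66.7% (26 of 39), against 67.6% of the epithelial genes and 60.4% of all genes. COL1A2, DCN, THY1 and CDH11, known from fibroblasts, had no count. Among other collagen genes COL5A1 had 81.9 and 108 CPM, COL6A1 85.2 and 111 CPM and COL1A1 8.22 and 8.96 CPM.

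CDH1, the E-cadherin gene, had 2 counts in DMSO 1 and 0 in DMSO 2. GRHL2 (a regulator of epithelial identity), RAB25 (an epithelial small GTPase) and MARVELD3 (a tight junction protein) had no count. Other junction genes were well expressed: TJP1 (207 and 234 CPM), the desmosomal plaque gene DSP (263 and 251 CPM), DSG2 (248 and 187 CPM) and PKP2 (146 and 170 CPM). Tight junction genes varied widely, with OCLN (occludin) at 16.0 and 13.7 CPM, CGN (cingulin) at 7.24 and 7.71 CPM and TJP3 at 0.41 CPM in either library. EPCAM, a surface marker of epithelium, was at 10.4 and 10.6 CPM, and the splicing regulators ESRP1 (3.50 and 3.75 CPM) and ESRP2 (6.90 and 10.5 CPM) were low. In all, 25 of 37 epithelial genes (67.6%) reached 1 CPM in both libraries, near the 60.4% of all genes.

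The cadherin repertoire was narrow. CDH4, which encodes R-cadherin, had 311 and 337 CPM, a mean of 44.1 CPM per kb. The next member, CDH24, had 23.4 and 21.3 CPM (5.96 CPM per kb). CDH2, the N-cadherin gene usually named as the mesenchymal partner of E-cadherin loss, had 5 and 15 counts (0.16 and 0.51 CPM). Of 22 classical cadherins, 2 (9.09%) reached 1 CPM in both libraries and 12 (54.5%) had no count. Over all genes these shares were 60.4% and 23.5%. Claudins were low but not absent: 7 of 23 (30.4%, against the same 60.4%) reached 1 CPM in both libraries. CLDN4 (55.5 and 51.1 CPM) and CLDN12 (66.2 and 53.1 CPM) were at the top of those 7. CLDN3 (2.08 and 2.64 CPM) and CLDN7 (5.48 and 4.67 CPM) were near their lower end.

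The keratins with the most counts were those of simple epithelium. KRT8 had 324 and 335 CPM, its partner KRT18 258 and 344 CPM, KRT19 206 and 306 CPM and KRT7 134 and 169 CPM. Per kb, KRT19 (110 CPM per kb) and KRT18 (93.5 CPM per kb) were highest. The basal keratins KRT5, KRT14, KRT6A and KRT6B had no count, and KRT17 had 10 and 9 counts. KRT80, an epithelial keratin with 119 and 168 CPM, stood level with KRT7, and KRT10 of stratified epithelium had 29.8 and 39.3 CPM. The hair keratin KRT81 (8.85 and 15.7 CPM) and KRT15 of basal cells (4.50 and 3.31 CPM) were lower. Of 55 keratins 9 reached 1 CPM in both libraries and 37 (67.3%) had no count. Over all genes 60.4% reached that level and 23.5% had no count. Of 26 basal and myoepithelial genes 15 (57.7%) reached 1 CPM in both libraries, near the 60.4% of all genes, and 6 had no count. The laminin chains LAMB3 (423 and 379 CPM) and LAMA3 (124 and 101 CPM) were expressed, while MME and VGLL1 had no count and CDH3, the P-cadherin gene, had 0.44 and 0.54 CPM. TP63, the regulator of basal cells, had 0.28 and 1.42 CPM.

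Luminal regulators were present at low to moderate levels. GATA3, the luminal master regulator, had 10.6 and 24.2 CPM, and FOXA1, a pioneer factor for hormone receptors, 8.03 and 8.12 CPM. XBP1 (85.9 and 58.5 CPM), MLPH (70.2 and 77.4 CPM) and AGR2 (19.2 and 22.7 CPM) were transcribed. Of 20 luminal genes 8 had no count, among them ELF5 and the secretory genes SCGB2A2, SCGB1D2 and PIP. MUC1, a luminal surface mucin, had 2.90 and 9.64 CPM. The stem cell surface pair showed high CD44 beside low CD24 (7.09 and 10.1 CPM), at 58.7 and 2.78 CPM per kb, while PROM1 and ALDH1A1 had no count.

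Positional identity genes were mostly low. Of 39 HOX genes, 9 (23.1%) reached 1 CPM in both libraries, against 60.4% of all genes, and 16 (41.0%) had no count, against 23.5%. HOXB9 stood alone at 47.8 and 42.7 CPM, with HOXD1, HOXB3, HOXD3, HOXD4 and HOXB4 between 3.99 and 8.69 CPM. In the HOXA cluster HOXA2, HOXA3, HOXA4, HOXA5, HOXA6, HOXA9, HOXA10 and HOXA11 were among those with no count, and HOXA13 had 1.29 and 2.20 CPM. SOX9, a progenitor factor, was the highest of 19 SOX genes, at 142 and 277 CPM.

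Markers of other cell types were mostly low or without a count, with exceptions. Their absence cannot tell this line from other lines. Over all genes 23.5% had no count and 60.4% reached 1 CPM in both libraries. Of 22 immune markers 14 (63.6%) had no count, including CD3E, CD3D, CD4 and MS4A1. Only 2 reached 1 CPM in both libraries, CD68, which encodes a lysosomal protein of macrophages and many other cells, at 175 and 377 CPM, and CD8A at 2.77 and 3.01 CPM. Of 16 fibroblast markers 7 had no count and the highest was COL1A1 at 8.22 and 8.96 CPM, and of 16 hepatocyte markers the highest mean was 1.58 CPM. Of 16 endothelial markers CDH5, TEK, ERG and PLVAP were among 7 with no count, while ESAM (75.9 and 53.3 CPM), ROBO4 (43.6 and 51.8 CPM) and EGFL7 (30.4 and 35.01 CPM) were expressed. MBP, listed among 16 neuron and glia markers, had 134 and 139 CPM, and GAD1 16.0 and 13.3 CPM. FLG, a cornified skin gene, had 64.4 and 65.3 CPM although 11 of 15 cornified keratinocyte genes had no count.

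Some families had no count in any member, and others had counts in few members. Over all genes 23.5% had no count. All 29 late cornified envelope and SPRR genes and all 17 type I interferon genes were at 0. No count was seen for 351 of 394 olfactory receptors, 85 of 94 keratin-associated proteins, 42 of 45 defensins, 193 of 199 immunoglobulin segments and 180 of 189 T cell receptor segments. No member of the olfactory receptor, defensin or antigen receptor families reached 1 CPM in both libraries. Of 22 UDP-glucuronosyltransferases, enzymes of drug and hormone conjugation, 21 were at 0 and UGT8, which makes a myelin lipid, had 41.4 and 35.3 CPM. Of 36 cancer-testis antigens, germ cell genes that tumours reactivate, 27 had no count. The exceptions were XAGE1B (123 and 125 CPM), SPANXB1 (18.1 and 25.2 CPM) and CT83 (6.83 and 5.45 CPM). XAGE1B and SPANXB1 have near-identical copies, and the sources do not say how shared reads were assigned, so these values are uncertain.

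A run of 24 neighbouring genes on chromosome 9 had no count in either library. The run was chosen after its values were seen. It holds HACD4, 16 type I interferon genes, KLHL9, MTAP, CDKN2A, CDKN2B, DMRTA1, ELAVL2 and IZUMO3, in the order of the annotation. FOCAD on one side had 117 and 86 counts, and TUSC1 on the other had 260 and 250. The interferons, DMRTA1, ELAVL2 and IZUMO3 are silent in many tissues. MTAP, which salvages methionine, and KLHL9, a ubiquitin ligase adaptor, are widely transcribed. CDKN2A and CDKN2B encode the CDK4 and CDK6 inhibitors p16 and p15.

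The other genes of that pathway were expressed. CCND1, which encodes cyclin D1, had 941 and 1085 CPM (210 CPM per kb), CDK4 65.3 and 65.9 CPM, CDK6 107 and 73.5 CPM and RB1 105 and 96.1 CPM. The remaining INK4 inhibitors were present, CDKN2C at 43.0 and 44.8 CPM and CDKN2D at 19.9 and 14.7 CPM. CDKN1A, which encodes p21, had 39.8 and 21.2 CPM and CDKN1B, which encodes p27, 63.6 and 51.3 CPM. Per kb, CCND1 stood above CDK4 (20.7), CDK6 (7.37) and RB1 (15.6). Of the 21 genes of this group 19 (90.5%) reached 1 CPM in both libraries, against 60.4% of all genes. CDKN2A and CDKN2B were the remaining 2. All 24 proliferation genes reached 1 CPM in both libraries, against the same 60.4%. Their lowest mean was 68.1 CPM, and MKI67 led at 1614 and 1691 CPM.

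Levels of secreted and immune genes varied widely from gene to gene. Matrix proteases and their regulators included MMP14 (487 and 532 CPM) and the urokinase gene PLAU (313 and 374 CPM), while MMP7, MMP10 and MMP13 had no count. CSF1, the macrophage growth factor, had 280 and 340 CPM. No count was seen for 7 of 25 inflammatory genes (28.0%, near the 23.5% of all genes), including TNF, CCL2 and CXCL10. Interferon-stimulated genes were transcribed although all 17 type I interferon genes were at 0. Of 27 listed, 22 (81.5%) reached 1 CPM in both libraries, against 60.4% of all genes. IFIT3 had 153 and 190 CPM and IFIT2 141 and 140 CPM. Of 23 MHC genes, B2M (191 and 180 CPM) and HLA-E (216 and 238 CPM) were expressed and HLA-DRB1, HLA-DQA1 and HLA-DQB1 had no count, HLA genes being close paralogs whose counts are uncertain. Among surface targets of therapy CDCP1 (438 and 450 CPM) and CD274, which encodes PD-L1 (15.5 and 13.5 CPM), were present, and NECTIN4, CEACAM5 and MUC16 had no count.

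The CG content of promoters differed with level. RefSeq promoter windows of 300 bases (250 before and 50 after the annotated start, GRCh38.p14) were matched by symbol for 15296 of the 20250 genes. The median window held 5 CG pairs in genes with no count, 11 in genes up to 1 CPM, 22 from 1 to 10 CPM, 27 from 10 to 100 CPM and 29 from 100 CPM upward. At least 15 CG pairs were found in 27.9% of windows of silent genes and in 89.0% of windows of genes at 100 CPM or more. Without the olfactory, taste, defensin and keratin-associated families the share among silent genes was 31.5%. Exceptions were common: 880 silent genes had at least 15 pairs, and 94 genes at 100 CPM or more had at most 5. Promoters of 2 abundant and 2 silent genes are shown for this contrast, each as the 250 bases before the RefSeq start, 5′ to 3′ on the gene's strand, with CG pairs in capitals. They lie at chr6:34236623-34236872 on the plus strand (HMGA1), chr10:17227991-17228240 on the plus strand (VIM), chr12:52520395-52520644 on the minus strand (KRT5) and chr1:156060910-156061159 on the plus strand (RAB25).
HMGA1: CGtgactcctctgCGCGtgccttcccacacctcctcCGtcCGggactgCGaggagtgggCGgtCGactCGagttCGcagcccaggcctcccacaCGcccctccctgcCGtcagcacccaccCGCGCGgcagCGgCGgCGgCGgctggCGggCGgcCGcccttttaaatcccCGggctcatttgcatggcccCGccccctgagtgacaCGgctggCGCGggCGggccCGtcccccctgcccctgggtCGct
VIM: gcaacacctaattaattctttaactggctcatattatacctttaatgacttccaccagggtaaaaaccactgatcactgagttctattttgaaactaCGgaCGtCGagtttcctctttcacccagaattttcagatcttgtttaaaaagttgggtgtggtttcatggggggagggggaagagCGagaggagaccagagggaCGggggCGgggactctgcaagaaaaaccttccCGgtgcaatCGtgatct
KRT5: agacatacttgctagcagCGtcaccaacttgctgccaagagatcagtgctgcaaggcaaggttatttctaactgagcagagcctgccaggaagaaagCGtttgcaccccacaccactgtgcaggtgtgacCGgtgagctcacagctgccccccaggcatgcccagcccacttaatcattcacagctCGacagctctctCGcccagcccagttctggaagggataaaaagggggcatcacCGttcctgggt
RAB25: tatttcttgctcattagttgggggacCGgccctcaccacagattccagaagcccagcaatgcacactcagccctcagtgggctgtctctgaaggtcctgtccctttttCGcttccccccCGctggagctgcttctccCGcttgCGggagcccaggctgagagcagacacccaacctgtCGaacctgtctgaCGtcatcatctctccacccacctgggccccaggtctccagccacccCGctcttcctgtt
HMGA1 has 30 CG pairs in these bases, KRT5 has 6 and RAB25 has 8. VIM has 8, as few as the silent RAB25, although its transcript was among the most abundant. Gene counts do not show which start the cells used, so a window may miss the promoter in use. This limit holds for VIM and for the exceptions counted above. The count of pairs before the annotated start thus does not separate these single genes.

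**Figure D2:**
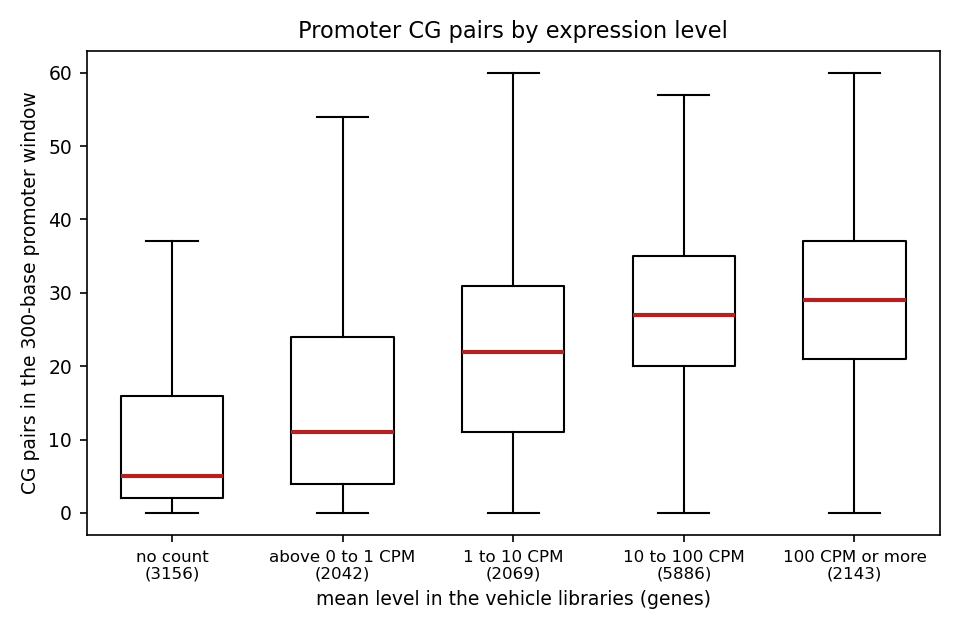
Number of CG pairs in the 300-base RefSeq promoter window by mean level in the vehicle libraries, with the number of genes in brackets; boxes span the quartiles, red bars are medians and whiskers reach the farthest value within 1.5 box lengths. The median rises from 5 in genes without a count to 29 in genes at 100 CPM or more, and the boxes of neighbouring classes overlap.

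The libraries were close for most genes and differed for some. Ratios are DMSO 2 over DMSO 1 on log2(CPM + 0.1), for the 12463 genes with a mean of at least 1 CPM. With 1 library on each side no replicate check of a ratio is possible, and none has a p-value. The log2 levels correlated across these genes with Pearson's r of 0.97, where genes are not independent replicates. The median log2 ratio was −0.07, with quartiles at −0.32 and 0.18. At least 2-fold higher in DMSO 2 were 273 genes (2.19%) and at least 2-fold lower 226 (1.81%), together 499 (4%). With mitochondrial counts in the denominator the median was −0.29, and 162 genes were higher and 445 lower. The share of 2-fold genes was 12.7% from 1 to 3 CPM and 1.66% from 300 to 1000 CPM.

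**Figure D3:**
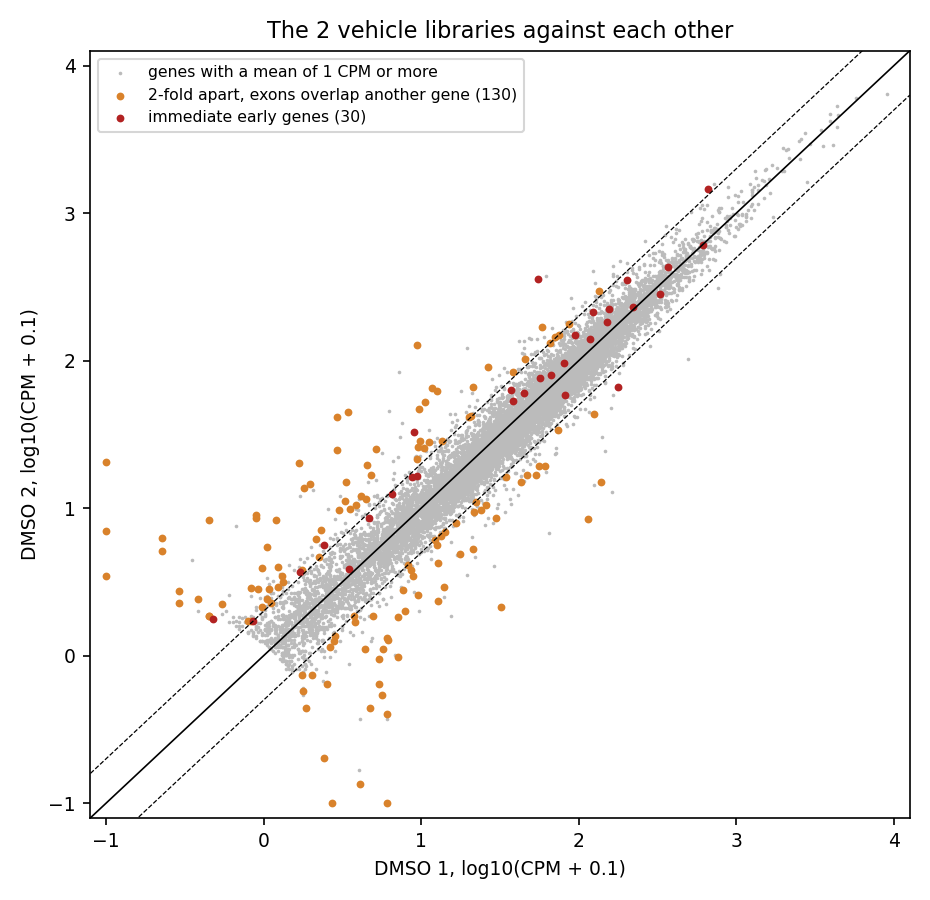
Level of each gene in DMSO 2 against DMSO 1, both on log10 axes of CPM + 0.1, for genes with a mean of at least 1 CPM; the solid line marks equal levels, the dashed lines mark 2-fold. The 130 orange genes lie beyond 2-fold and share exons with another gene, and most of the 30 red immediate early genes lie above the line of equal levels.

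All 13 mitochondrially encoded genes took a larger share of the counts in DMSO 2, between 1.95-fold (MT-ND3) and 3.08-fold (MT-ND5) larger. MT-CO1, a catalytic subunit of cytochrome oxidase, took 2.24% in DMSO 1 and 5.02% in DMSO 2. The nuclear genes for oxidative phosphorylation did not follow: the median log2 ratio of 46 subunits was −0.22, with none 2-fold apart. The same median of −0.22 was found for 84 ribosomal protein and elongation factor genes, and −0.20 for 31 proteasome subunits. Among 15 integrins it was −0.38, the lowest of the larger lists plotted, with ITGAV at 98.2 and 58.7 CPM and ITGA2 at 387 and 252 CPM.

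Immediate early genes, the transcription factors and phosphatases induced within minutes of growth factor or serum stimulation, were higher in DMSO 2. EGR1, a zinc finger factor, had 55.2 CPM in DMSO 1 and 354 CPM in DMSO 2, 6.41-fold higher (exact binomial 95% interval 6.10 to 6.75). FOSL1, the AP-1 subunit FRA1, had 663 and 1461 CPM, 2.21-fold higher (2.17 to 2.24). MYC had 8.91 and 32.5 CPM, 3.64-fold higher (3.19 to 4.18). Of 30 members with a mean of 1 CPM or more, 7 were at least 2-fold higher and 1 lower, against 2.19% and 1.81% of all genes. Above the median of all genes lay 27. The list's median log2 ratio was 0.59, against −0.07 over all genes. The 1 lower member was FOSL2, the AP-1 subunit FRA2, at 177 and 66.3 CPM, 2.67-fold lower (2.54 to 2.81). JUN did not share the difference, at 221 and 230 CPM. The 4 other members beyond 2-fold were low: EGR2 (1.61 and 3.59 CPM), EGR3 (0.38 and 1.66 CPM), FOSB (2.30 and 5.51 CPM) and NR4A3 (0.76 and 1.62 CPM). The list's transcripts had a median GC content of 54.4%, against 48.5% over all genes, and the part of GC content or of the mitochondrial share in these ratios was not tested.

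Growth factor induction of such genes is known to run through serum response factor, which binds CArG boxes. Within the windows of 24 matched immediate early genes, 2 held a CArG box on either strand (the motif reads the same on both), namely EGR1 and SRF, each with 2. FOSL1, MYC and EGR3 had no matched window and were not searched. Boxes outside the 300 bases of a window would not be seen, so the other matched genes cannot be said to lack one. Over all 15296 windows 1.24% held one. The EGR1 promoter is shown as the 250 bases before its RefSeq start (GRCh38.p14, chr5:138465229-138465478, plus strand, 5′ to 3′), with the boxes in capitals.
EGR1: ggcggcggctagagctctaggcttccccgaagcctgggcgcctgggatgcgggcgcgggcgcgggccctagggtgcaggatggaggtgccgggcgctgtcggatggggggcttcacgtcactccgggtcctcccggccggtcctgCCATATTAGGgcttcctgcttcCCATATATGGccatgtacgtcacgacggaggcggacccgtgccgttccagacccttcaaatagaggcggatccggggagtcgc
SRF itself had 155 and 225 CPM. A match describes these letters only and does not show binding.

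**Figure D4:**
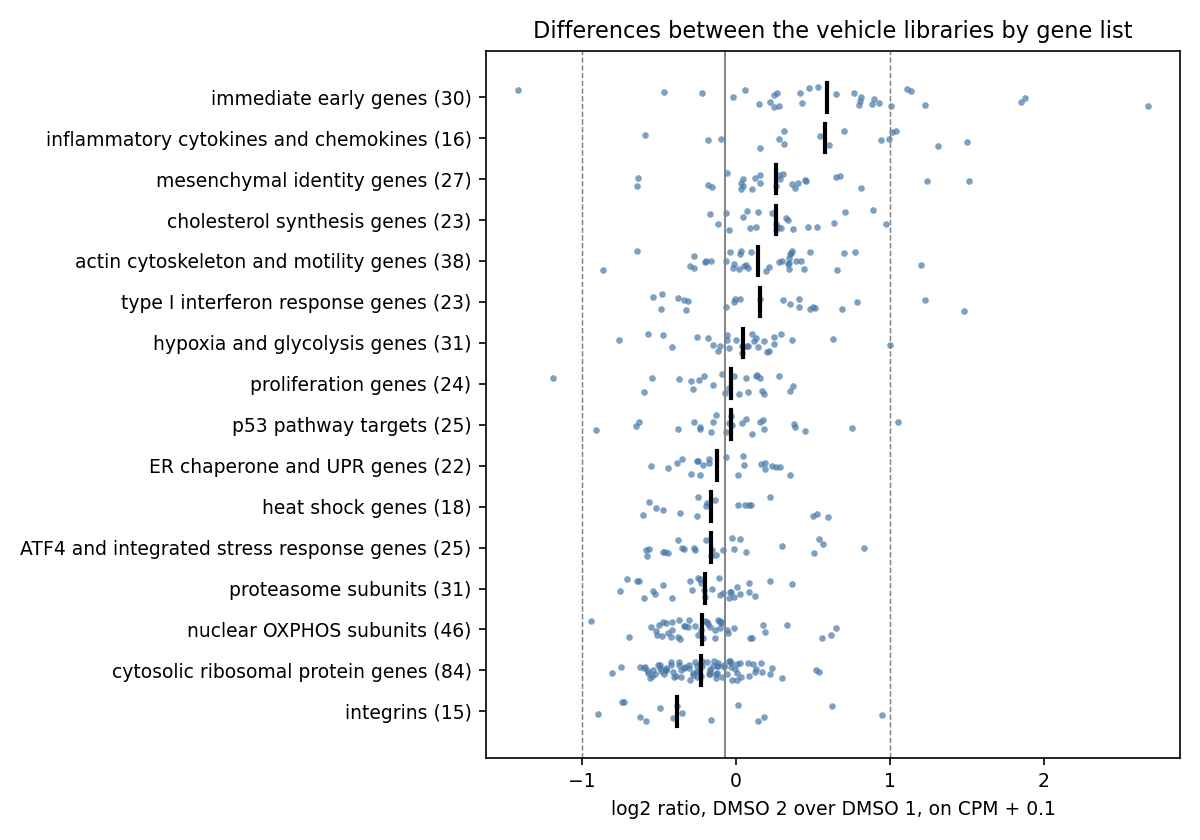
Log2 ratio of DMSO 2 over DMSO 1 for members of 16 gene lists with a mean of at least 1 CPM (number in brackets); black bars are list medians, the grey line is the median of all genes at −0.07 and dashed lines mark 2-fold. Immediate early and inflammatory genes have the highest medians (0.59 and 0.58) and integrins the lowest (−0.38).

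Inflammatory genes showed a median nearly as high. Of 16 with a mean of 1 CPM or more, 4 were at least 2-fold higher in DMSO 2 and none lower, with a median log2 ratio of 0.58. Over all genes 2.19% were higher and 1.81% lower. All 4 were low: CXCL1 (1.86 and 3.86 CPM), CXCL3 (1.35 and 4.03 CPM), IL6 (2.17 and 5.55 CPM) and CSF2 (1.13 and 2.44 CPM). CXCL1 and CXCL3 are similar in sequence. CXCL8, a neutrophil chemokine, was at 7.46 and 14.4 CPM. Among genes with a mean of at least 10 CPM the median of the inflammatory list was 0.30. That of the immediate early list was then 0.43.

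Cholesterol synthesis genes were higher by smaller steps, with a median of 0.26 and no member 2-fold apart. Of 23 members 21 lay above the median of all genes. INSIG1, which retains the SREBP activator in the endoplasmic reticulum, had 139 and 273 CPM. The early enzyme gene HMGCS1, at 128 and 118 CPM, differed little. The list's median was 0.04 with mitochondrial counts in the denominator.

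Lineage lists held few genes 2-fold apart, but they are short, so their shares are to be read against the 4% of all genes. Of 27 mesenchymal genes 2 were apart, SNAI2 and SNAI1. Of 12 luminal genes 2 were, GATA3 and MUC1. All were higher in DMSO 2, as were 2 of 11 steroid receptor and target genes, ESR2 and PRLR. These shares lie above 4%, but each rests on 2 genes. Of 26 epithelial genes 1 was apart, CDS1, at 1.73 and 0.78 CPM. GATA3 was 2.28-fold (2.00 to 2.60) and MUC1 3.33-fold (2.62 to 4.26) higher in DMSO 2, CD68 2.15-fold (2.08 to 2.22) and PRLR 7.46-fold (5.55 to 10.2). Of the growth control genes, MDM2 was at 42.1 and 87.3 CPM, CCND2 at 28.3 and 13.7 CPM and BIRC5 at 94.6 and 41.6 CPM. Each was the only gene 2-fold apart in its list, of 25 p53 targets, 19 INK4 to RB family genes and 24 proliferation genes. These shares lie near the 4% of all genes. No basal gene, receptor tyrosine kinase, integrin, heat shock or stress response gene of these lists was 2-fold apart among those with a mean of 1 CPM or more.

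Ratios moved with the base composition of transcripts. The median log2 ratio was −0.34 for genes whose longest transcript had under 35% GC and rose to 0.07 from 55% to 60% GC. Across 12451 genes Spearman's rho was 0.34 with GC content and −0.10 with transcript length. Of 406 genes of the ZNF family, mostly zinc finger repressors, 8 were at least 2-fold higher and 26 lower in DMSO 2. Over all genes 2.19% were higher, which is near the ZNF share, and 1.81% lower. Their median log2 ratio was −0.18 and the median GC content of their transcripts 43.5%. The part of GC content in any list's median was not tested.

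**Figure D5:**
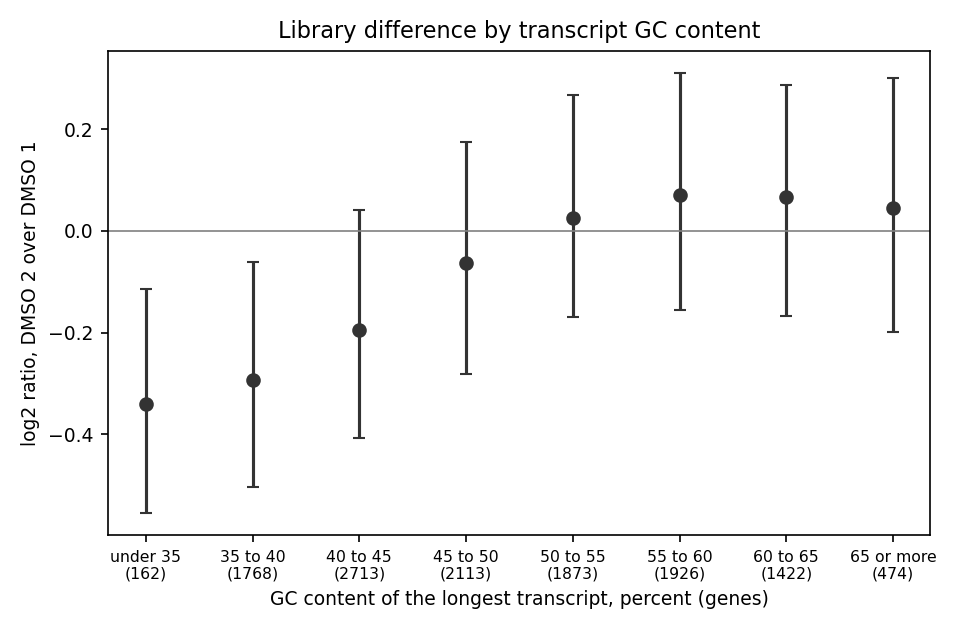
Median log2 ratio of DMSO 2 over DMSO 1 (points) with quartiles (bars) by GC content of the longest transcript, with the number of genes in brackets. Medians run from −0.34 under 35% GC to 0.07 from 55% to 60% GC, and the quartile ranges of neighbouring classes overlap.

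Many of the largest ratios fell on genes that share exons with a neighbour on the same strand. Of the 499 genes 2-fold apart, 130 (26.1%) overlapped another gene of the table in this way, against 10.7% of all 12463. Once counts were summed over each overlapping cluster, 118 of these 130 (90.8%) were under 2-fold. Of all 1339 overlapping genes with a ratio, 1323 (98.8%) were. TOMM6, a subunit of the mitochondrial import channel, had 296 counts in DMSO 1 and 3740 in DMSO 2. The overlapping gene AL365205.1 had 4411 and 444, and the sum was 4707 and 4184. FAM47E-STBD1, a read-through gene, had 50 and 595 counts, its partner STBD1 938 and 252, and the sum 988 and 847. In both pairs the libraries placed the reads on opposite members while the sum stayed close. For other pairs the sum moved more. It was 1820 and 801 counts for HSPE1-MOB4 with MOB4, and 3086 and 3949 for SPECC1L-ADORA2A with SPECC1L. FMC1-LUC7L2 had 0 and 603 counts, at least 216-fold higher against a floor of 3 counts per library. Of 66 read-through genes with a mean of 1 CPM or more, 24 (36.4%) were 2-fold apart, against 4% of all genes. No source used here says how the counting program divided shared reads.

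Other large ratios fell on genes with no such overlap in the annotation used. DAG1, which encodes dystroglycan, a laminin receptor, had 15536 and 3035 counts, 4.77-fold lower in DMSO 2 (4.58 to 4.96). TGOLN2, a trans-Golgi network protein, went the other way, with 1963 and 11052 counts, 6.05-fold higher (5.76 to 6.35). Among these were also YOD1 (2044 and 196 counts), TRIM56 (3940 and 421), CASP2 (619 and 3585), FILIP1L (226 and 2451) and TRIM32 (195 and 1344). The counting intervals of both folds given here lie far from 1. The zinc finger gene ZNF267 had 917 and 117 counts, while ZNF358, which does share exons with another gene, had 89 and 1226. Of the 33 genes at least 4-fold apart with a mean of at least 10 CPM, 16 shared exons with another gene, against 9.37% of all genes with such a mean.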

How the data were processed

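Polyadenylated RNA of MDA-MB-231 cells was sequenced; per the labels' protocols, mRNA libraries were built from 1.4 µg of total RNA that had been purified on columns. The values deposited are raw read counts, whole numbers whose totals differ between libraries, with 1 row for each Ensembl gene. Aligner, counter, strand setting and annotation were not given in the sources consulted. Per the submitters' processing notes the builds are GRCm38 and mm10, mouse assemblies, although all 20263 identifiers are human. A table of gene names gave symbols to 19761 genes, GENCODE release 29 gave them to 463, and 39 had none. Antisense and overlapping genes are uncertain, since it is not stated whether strand was used.

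Only the DMSO libraries were used, grouped by their titles. With nothing to say that they are separate cultures, their spread may be technical. Counts were divided by the non-mitochondrial total (CPM). Lengths are merged exons of GENCODE release 29, available for 20211 genes, and same-strand exon overlaps were found with bedtools 2.31.1. Ratios used log2(CPM + 0.1) for genes with a mean of at least 1 CPM, and their calculation was tested on simulated counts. Intervals are 95% Wilson intervals for shares and exact conditional binomial intervals for ratios. One group of 2 libraries allows no test between groups, so no p-value was computed.

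The members and the 44 gene lists were chosen with earlier results of these data known. Named genes were the 20 highest in CPM, the 10 highest per kb, in each list up to 6 highest members, up to 4 with the largest ratio and those with no count, the 12 largest ratios in each direction with a mean of at least 10 CPM, and every steroid receptor, ERBB, INK4 and RB family member. Other list members were named for their role after their values were seen, and so were ligands, keratins and overlapping partners. Alternatives were other scalings (TMM in edgeR 4.0.16 under R 4.3.3, median of ratios, all counts), level and fold limits, pseudocount, gene length, leaving out each library and, chosen after seeing the data, leaving out overlapping genes. Python 3.11.15 was used. Some genes that the rule names are left out of the text.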

Additional observations from a re-analysis of the deposited data

How the results depend on the processing

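The count of genes at least 2-fold higher in DMSO 2 (273) was 162 with mitochondrial counts in the denominator, 136 with a mean of at least 10 CPM, 605 with a mean of at least 0.1 CPM and 883 at a limit of 1.5-fold. The count at least 2-fold lower (226) was 445, 115, 449 and 1009 in that order. Lower calls outnumbered higher ones with that denominator and at the limit of 1.5-fold. TMM and the median of ratios gave 314 higher and 189 lower, a pseudocount of 1 CPM gave 184 and 152, and leaving out genes with overlapping exons gave 201 and 168. The median log2 ratio of all genes shifted by −0.22 with all counts as the denominator and by 0.06 with TMM. All 57 single-gene ratios put under 3 other scalings were at least 2-fold apart to begin with. Shifts of this size could hardly change the sign of such ratios, and 0 changed sign. Of the 57, 43 stayed at least 2-fold under each scaling.

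Genes at 1 CPM or more in both libraries numbered between 10607 (5 CPM) and 12816 (0.5 CPM), and 12434 to 12449 with 1 library left out. Genes without a count numbered 5564 if up to 3 counts were allowed, and 5323 or 5324 in a single library. The 20 highest genes held 7.15% of the counts in the mean, 7.13% to 7.22% with 1 library left out and 5.78% when ranked per kb. The mitochondrial share averaged 15.2% and was 8.68% to 21.7% with 1 library left out, so it rests on which library is used. No paired analysis was possible because the libraries form 1 group and no result comes from a test. Depth limits genes under about 0.1 CPM, where 3 counts cannot be told from 0, and the sequence of shared exons limits overlapping genes.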
